A study of Arabidopsis thaliana with 12 samples.

Results

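The genes described here encode GASA peptides, named after the gibberellic acid-stimulated genes of Arabidopsis. The 8 members are GASA1 (AT1G75750), GASA4 (AT5G15230), GASA5 (AT3G02885), GASA6 (AT1G74670), GASA7 (AT2G14900), GASA9 (AT1G22690), GASA10 (AT5G59845) and GASA14 (AT5G14920), out of 32678 genes counted. They were taken by locus name. The family was picked because GASA7 was higher in camta3-D than in wild type after all 3 treatments. The genotype differences of GASA7 are therefore a description without a test. Its differences between treatments come from the same libraries, and are likewise given without a test and left out of the counts of called members.

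Polyadenylated RNA was sequenced from leaves of Col-0 wild type and of camta3-D (sr1-4d), 2 libraries in each of 6 groups. Both genotypes were sampled 1 h after flg22 (100 nM), and 4 h after Pst DC3000 AvrRpm1 or Pst DC3000 AvrRps4, each at an OD600 of 0.001. Plants were 4 weeks old, leaves were infiltrated by syringe, and a library came from 6 leaf discs of 6 plants. The line camta3-D carries a dominant point mutation in CAMTA3, a calmodulin-binding transcription factor, so that the CAMTA3 count does not check the genotype label. The peptide flg22 is a stretch of bacterial flagellin perceived at the cell surface. Pst is the leaf pathogen Pseudomonas syringae pv. tomato, and AvrRpm1 and AvrRps4 are effectors which Arabidopsis recognises through intracellular receptors. By the study's account, the flg22 and AvrRpm1 replicates were separate experiments. For AvrRps4 this is not given in the sources used here, so that the spread between its replicates, and the p-values that rest on it, may be technical. No mock-treated library was analysed here, so that none of the values is a response to a treatment relative to its own control. A genotype difference after a treatment cannot be told apart from one that was present before it.

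Gibberellins are plant growth hormones that promote stem elongation, leaf expansion, flowering and seed germination. A gibberellin bound to a GID1 receptor leads to the breakdown of DELLA proteins, which hold back growth genes. GASA proteins are small and secreted, and consist of a signal peptide, a variable stretch and a carboxy-terminal domain whose cysteines are conserved across land plants. The transcript of a GASA gene can be raised or lowered by gibberellin, depending on the gene. GASA4 and GASA6 are known to promote flowering and germination respectively, GASA5 to repress flowering, and GASA14 to promote leaf growth and stress tolerance.

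The coding sequences at the 3' end of the members are shown first, because they define the family and show how close the members that behaved alike or differently are to each other. Each line is the last 60 codons before the stop codon, 5' to 3' on the coding strand, with the codons for cysteine in capitals (RefSeq, TAIR10.1). The stretch of GASA7 lies at chr2:6404861-6405040 (+), that of GASA10 at chr5:24111626-24111805 (+) and that of GASA14 at chr5:4827579-4827758 (+), each within an exon. Those of GASA1, at chr1:28441816-28442077 (-), and GASA6, at chr1:28053631-28053890 (+), were joined across an intron.
GASA7: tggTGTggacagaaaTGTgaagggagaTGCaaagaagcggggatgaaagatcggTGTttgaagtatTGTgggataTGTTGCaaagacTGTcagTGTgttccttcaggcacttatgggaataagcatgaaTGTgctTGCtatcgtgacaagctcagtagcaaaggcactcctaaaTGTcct
GASA10: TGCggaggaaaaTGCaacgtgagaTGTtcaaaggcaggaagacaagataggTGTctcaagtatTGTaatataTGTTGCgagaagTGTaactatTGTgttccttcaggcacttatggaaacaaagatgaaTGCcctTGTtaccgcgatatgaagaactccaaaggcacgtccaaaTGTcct
GASA1: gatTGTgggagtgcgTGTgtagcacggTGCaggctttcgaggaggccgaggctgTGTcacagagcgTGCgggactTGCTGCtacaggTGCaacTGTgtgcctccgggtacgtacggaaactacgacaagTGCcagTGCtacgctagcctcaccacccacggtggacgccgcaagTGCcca
GASA6: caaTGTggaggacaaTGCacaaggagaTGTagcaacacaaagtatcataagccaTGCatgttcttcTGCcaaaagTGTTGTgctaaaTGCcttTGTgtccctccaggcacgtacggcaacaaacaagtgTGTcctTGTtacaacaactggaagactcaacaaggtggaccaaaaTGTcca
GASA14: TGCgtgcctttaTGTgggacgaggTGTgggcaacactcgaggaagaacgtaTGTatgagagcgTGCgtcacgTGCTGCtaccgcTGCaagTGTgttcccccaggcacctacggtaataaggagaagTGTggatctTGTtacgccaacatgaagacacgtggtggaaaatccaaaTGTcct

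All 8 members held 12 cysteine codons in these 60. GASA7 and GASA10 shared 69.4% of the aligned bases of this stretch. GASA6 was closest to GASA5 (73.08%) and GASA4 (70.56%). GASA1 and GASA6 were the least alike pair (48.89%). GASA14 has 275 codons, 81 of them for proline, whereas the other members have 89 to 119 codons. No stretch of 50 exon bases of any member occurred elsewhere in the genome on either strand. The exons of GASA6 share 206 of 910 bases with AT1G74675 on the opposite strand, and those of GASA9 share 11 of 764 with AT1G22700. The strand setting of the counting is not given in the sources used here, and reads in the shared bases cannot be told apart.

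The 250 bases before the annotated start of GASA7, at chr2:6403881-6404130 (+), are shown because this gene had the largest genotype difference among the members.
GASA7 upstream: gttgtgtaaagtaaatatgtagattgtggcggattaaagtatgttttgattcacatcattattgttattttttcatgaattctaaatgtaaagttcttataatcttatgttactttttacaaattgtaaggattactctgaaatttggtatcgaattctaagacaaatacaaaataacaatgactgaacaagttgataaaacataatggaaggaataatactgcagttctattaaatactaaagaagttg
These bases contain none of 5 short motifs that were searched on both strands. CAMTA factors are known to bind both CGCG and CGTG cores. The longer form ACGCGT contains CGCG, and the G-box CACGTG contains CGTG. The motif TAACAAA is known from gibberellin-responsive genes of cereals. CGCG occurred in 10.14% of 27438 promoters of the same length and in 0 of the 8 members. ACGCGT was in 1.669% of promoters and CACGTG in 6.487%, and both were in 0 of the 8 members. CGTG, the other CAMTA core, was in 45.64% of promoters and in 3 of the 8 members. It lay 28 bases before the start in GASA4, 29 bases in GASA5 and 132 bases in GASA9. TAACAAA was in 16.15% of promoters and in 1 member, GASA9, at 128 bases before the start. A match of letters is a description and no evidence of binding.

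The libraries held 22.8 to 26.3 M gene counts, and 19167 genes had enough counts for a test. All 5 leaf markers were detected in every library, and their summed level was 23038 to 45656 CPM (counts per M counts of a library, scaled by TMM). In each treatment the sum was higher in both camta3-D libraries than in both wild-type libraries, but 0 of the 5 leaf markers were called. The sum of 6 guard cell markers after flg22 was 26.5 and 29.9 CPM in camta3-D against 41.4 and 45.1 CPM in wild type. Of these 6, 2 were called lower and 0 higher, beside 5.59% of all genes called lower, and GORK was not lower (0.13 ± 0.36 on the log2 scale). The sum of 7 phloem markers after flg22 was 940 and 1043 CPM in camta3-D against 881 and 727 CPM in wild type, with 0 called. The sums of epidermis and of dividing cell markers overlapped between genotypes after flg22. After AvrRps4 the guard cell sum was 47.5 and 56.9 CPM in camta3-D against 59.8 and 57.3 in wild type. Of these markers 1 was called lower, beside 2.44% of all genes. The dividing cell sum was 6.07 and 6.23 against 3.79 and 5.66 CPM. After AvrRpm1 it was 8.34 and 7.98 against 5.70 and 6.86 CPM. The epidermis sum after AvrRpm1 was 449 and 406 against 396 and 345 CPM. No dividing cell or epidermis marker was called. The other guard cell, epidermis and phloem sums overlapped. In leaf tissue, fewer cells of a type and less RNA per cell cannot be told apart. The part of these marker differences in the results below was not tested. CAMTA3 was at 49.9 to 68.2 CPM after AvrRpm1, 87.0 to 124 after AvrRps4 and 191 to 210 after flg22, and did not pass the test between genotypes in any treatment. AvrRpm1 camta3-D replicate 2 stood apart by 7.78% of alignments at more than a single place, against 2.56% to 3.43% in the other libraries.

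Of the 8 members, 7 had enough counts for a test. GASA5 had 0 to 3 counts per library and was not tested. Another 7 GASA genes (GASA2, GASA3, GASA8, GASA11, GASA12, GASA13 and GASA15) had 25 counts in all libraries together, and none was tested. To compare genes, levels were divided by exon length (RPKM, TMM-scaled CPM per kilobase of exon). After AvrRpm1 in wild type, GASA1 was at 798.5 ± 29 RPKM (SD, n = 2), followed by GASA14 at 41.7 ± 3.6, GASA9 at 32.8 ± 10.5, GASA4 at 29.5 ± 5.9 and GASA6 at 9.3 ± 3.3. The last in that group were GASA7 at 1.27 ± 0.30 RPKM and GASA10 at 0.254 ± 0.074 RPKM. GASA14, GASA9 and GASA4 were within the spread of their neighbours. GASA1 had the highest mean per length in all 6 groups. GASA7 was the lowest in every group but for GASA10 and GASA5.

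**Figure D1:**
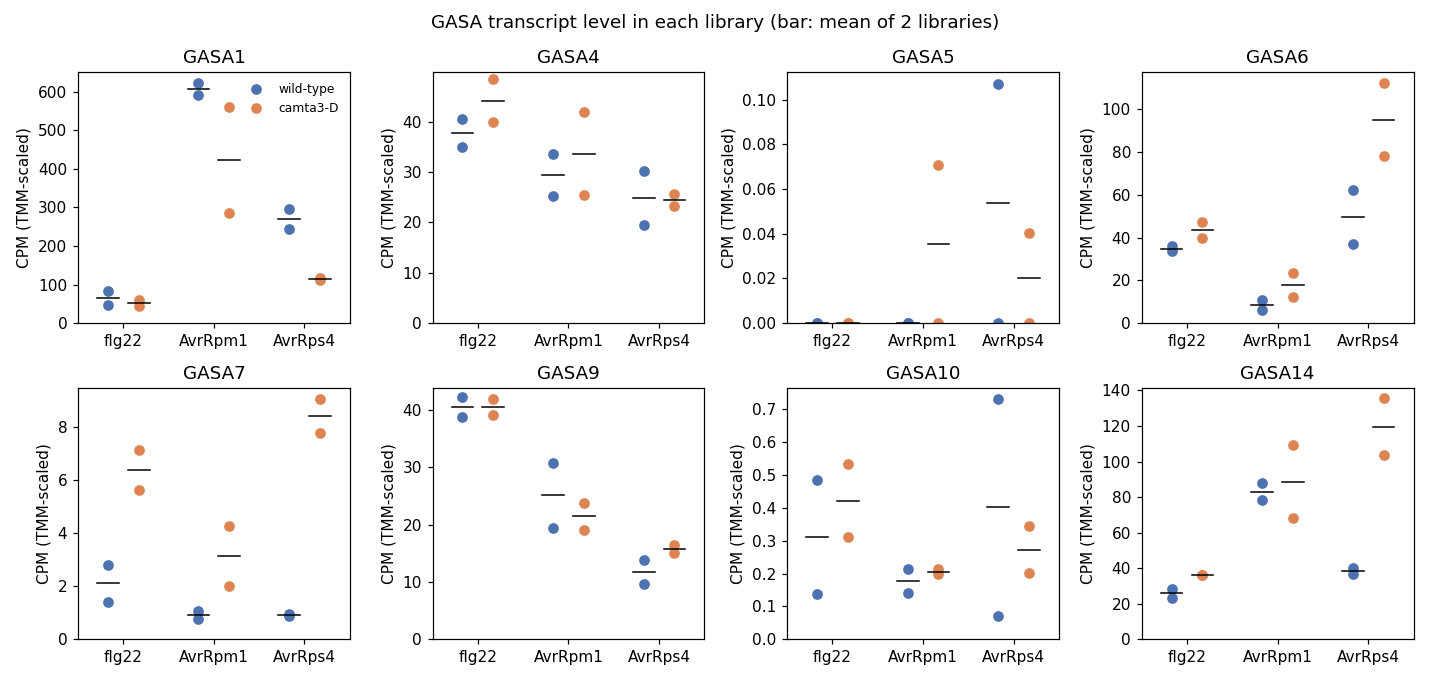
Transcript level of the 8 members in each of the 12 libraries, in CPM (TMM-scaled, linear axis from 0, a different range in each panel). Blue points are wild-type and orange points camta3-D libraries, and black bars are means of 2 libraries. The GASA7 points of camta3-D lie above those of wild type in each treatment, GASA1 is highest after AvrRpm1, and GASA6 is lowest after AvrRpm1.

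GASA1, the founding member in Arabidopsis, was the most abundant and differed most between treatments. After AvrRpm1 it was at 622 and 591 CPM in wild type and at 560 and 287 CPM in camta3-D. After AvrRps4 it was at 295 and 243 CPM in wild type and at 118 and 111 CPM in camta3-D. After flg22 it was at 83.9 and 47.1 CPM in wild type and at 44.7 and 60.6 CPM in camta3-D. The order of group means ran from AvrRpm1 through AvrRps4 to flg22 in both genotypes. The groups of both genotypes overlapped after flg22 and did not overlap after AvrRpm1 or AvrRps4. Here, for the markers above and below, such a separation of 2 libraries from 2 others is a description, and its share over all genes is not given.

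GASA6 had nearly the opposite order, with the highest values after AvrRps4. It was at 78.1 and 112 CPM in camta3-D and at 62.5 and 37.1 CPM in wild type after AvrRps4. After flg22 it was at 39.9 and 47.3 CPM in camta3-D and at 33.6 and 36.0 CPM in wild type. After AvrRpm1 it was at 23.4 and 12.2 CPM in camta3-D and at 6.35 and 10.6 CPM in wild type. Both camta3-D libraries were above both wild-type libraries in each treatment.

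GASA14, with its long proline-rich stretch, was at 78.1 and 88.1 CPM in wild type and at 109 and 68.0 CPM in camta3-D after AvrRpm1. After AvrRps4 it was at 36.6 and 40.1 CPM in wild type and at 104 and 136 CPM in camta3-D. After flg22 it was at 28.3 and 23.4 CPM in wild type and at 36.3 and 35.9 CPM in camta3-D. The wild-type libraries after AvrRps4 were thus nearer to those after flg22 than to those after AvrRpm1, whereas in camta3-D the values after both Pst strains overlapped.

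GASA7 was low in wild type and higher in camta3-D, which is why the family was picked. After AvrRps4 it was at 0.964 and 0.876 CPM in wild type and at 9.05 and 7.77 CPM in camta3-D, from 27 and 24 counts against 237 and 192. After AvrRpm1 it was at 0.753 and 1.06 CPM in wild type and at 4.26 and 2.02 CPM in camta3-D, from 21 and 30 counts against 120 and 51. After flg22 it was at 2.81 and 1.40 CPM in wild type and at 5.64 and 7.15 CPM in camta3-D, from 61 and 29 counts against 106 and 138. The groups did not overlap in any treatment. The replicates of GASA7 were uneven after flg22 in wild type and after AvrRpm1 in camta3-D, where the higher library had over 2 times the counts of the lower.

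GASA9 and GASA4 had their highest group means after flg22 in both genotypes. GASA9 was at 38.7 to 42.1 CPM in all 4 libraries after flg22, at 19.0 to 30.8 CPM after AvrRpm1 and at 9.68 to 16.5 CPM after AvrRps4. GASA4 was at 34.9 to 48.4 CPM after flg22, at 25.2 to 41.8 CPM after AvrRpm1 and at 19.5 to 30.3 CPM after AvrRps4. The flg22 libraries of GASA9 did not overlap with any Pst library. Those of GASA4 overlapped with the camta3-D libraries after AvrRpm1. GASA10 was at 0.0714 to 0.730 CPM, from 2 to 20 counts, and its groups overlapped in each comparison. GASA5 had 3 counts in AvrRps4 wild-type replicate 1, 2 in AvrRpm1 camta3-D replicate 1, 1 in AvrRps4 camta3-D replicate 2 and 0 in the other libraries.

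The comparison of camta3-D with wild type within each treatment asks which transcripts differ between these lines. No other mutant line is among the libraries, so the part of the CAMTA3 allele itself was not tested. GASA14 rose in camta3-D after AvrRps4, and was the only one of the 6 tested members other than GASA7 that passed in any treatment. Its log2 fold change was 1.64 ± 0.21 (SE, 3.12-fold, adjusted p = 0.00629, edgeR's quasi-likelihood test), with both camta3-D libraries higher. The call was lost without AvrRps4 wild-type replicate 1 (1.58, adjusted p = 0.0646) and without AvrRps4 camta3-D replicate 2 (1.43, adjusted p = 0.0539). The log2 fold change of GASA14 was 0.48 ± 0.22 after flg22 (adjusted p = 0.177) and 0.09 ± 0.21 after AvrRpm1 (adjusted p = 0.855). After AvrRps4, 2.49% of all genes tested were called higher in camta3-D and 2.44% lower, beside 1 and 0 of the 6 members. With library totals in place of TMM, higher genes made up 23.1% of all calls after AvrRps4 in place of 50.5%, and with only the libraries compared 37.6%. The family was picked on GASA7, so nothing is read from these counts about the family.

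GASA1 was lower in both camta3-D libraries after AvrRps4, with a log2 fold change of -1.23 ± 0.33 (2.35-fold lower, adjusted p = 0.0588), which missed the threshold. It was below the threshold with DESeq2 (adjusted p = 0.00411), without the filter on low counts (0.0355), with only the libraries compared (0.0181) and with library totals (0.0416), and the range over all alternatives was 0.00411 to 0.255. The log2 fold change of GASA1 was -0.52 ± 0.32 after AvrRpm1 (adjusted p = 0.414). It was -0.11 without AvrRpm1 camta3-D replicate 2, the library with more alignments at several places, and -1.08 without AvrRpm1 camta3-D replicate 1. After flg22 it was -0.32 ± 0.32 (adjusted p = 0.569), and 0.13 without flg22 wild-type replicate 1, so that its sign rests on that library.

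GASA6 did not pass in any treatment, and the separation of its groups is a description. Its log2 fold change was 1.07 ± 0.36 after AvrRpm1 (adjusted p = 0.135), 0.94 ± 0.34 after AvrRps4 (adjusted p = 0.137) and 0.33 ± 0.34 after flg22 (adjusted p = 0.58). With a library left out it ran from 0.53 (without camta3-D replicate 1) to 1.49 (without wild-type replicate 2) after AvrRpm1, from 0.61 (without wild-type replicate 2) to 1.36 (without wild-type replicate 1) after AvrRps4, and from 0.17 (without camta3-D replicate 2) to 0.41 (without camta3-D replicate 1) after flg22. GASA9 reached 0.43 ± 0.23 after AvrRps4 (adjusted p = 0.29), and GASA4 did not exceed 0.23 ± 0.26 (after flg22, adjusted p = 0.609). GASA10, with its few counts, had standard errors of 0.86 to 1.01 on the log2 scale, so that a 2-fold difference was not detectable at this depth.

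After flg22, 5.21% of all genes tested were called higher in camta3-D and 5.59% lower, and 0 of the 6 members were called in edgeR and 0 in DESeq2, with 1 member (GASA14) at an unadjusted p under 0.05. With only the libraries compared, higher genes made up 23.7% of all calls after flg22 in place of 48.2%. After AvrRpm1, 1.12% of genes were called higher and 3.41% lower, and 0 of the 6 members were called in edgeR and 0 in DESeq2, with 1 (GASA6) at an unadjusted p under 0.05. The 6 members had a median log2 fold change of 0.28 after flg22 (0.04 over all genes tested), of 0.15 after AvrRpm1 (0.01 over all genes) and of 0.20 after AvrRps4 (0.00 over all genes).

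The difference of GASA7 is given without a test. Its log2 fold change between camta3-D and wild type was smallest after flg22, at 1.59 ± 0.38 (3.02-fold). It was 1.79 ± 0.42 (3.46-fold) after AvrRpm1 and 3.18 ± 0.41 (9.09-fold) after AvrRps4. With a library left out it was 1.16 to 2.15 after flg22 (highest without wild-type replicate 1), 1.15 to 2.23 after AvrRpm1 (lowest without camta3-D replicate 1) and 3.07 to 3.28 after AvrRps4. The replicates were most alike after AvrRps4.

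**Figure D2:**
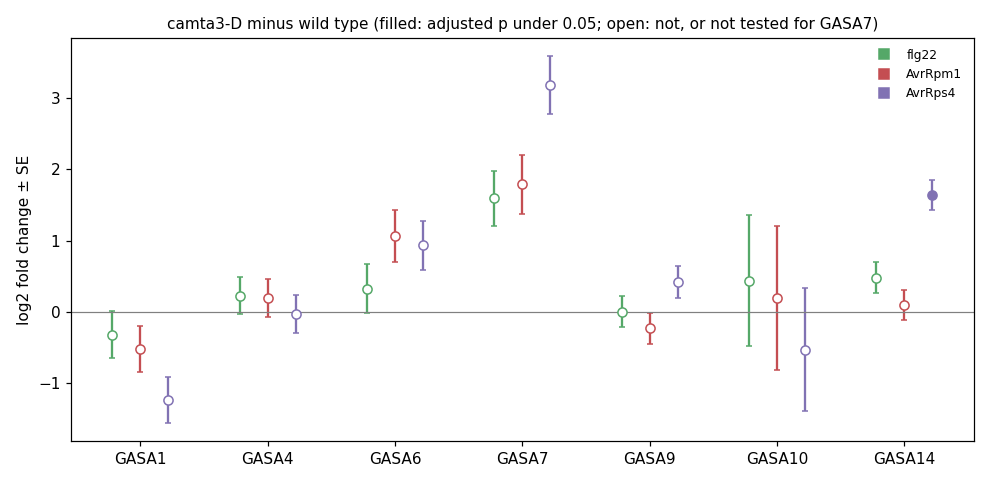
Difference between camta3-D and wild type for the 7 members with enough counts, as log2 fold change (linear axis of log2 values) with 1 SE, after flg22 (green), AvrRpm1 (red) and AvrRps4 (purple). Filled points passed an adjusted p under 0.05 and open points did not or, for GASA7, were not tested. GASA14 after AvrRps4, at 1.64, is the filled point. Within each treatment GASA7 has the highest point, and GASA1 lies below 0, after flg22 by less than 1 SE.

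Whether the genotype difference itself differed between treatments was tested with interaction terms. Between AvrRpm1 and AvrRps4, the genotype difference of GASA14 differed by -1.55 ± 0.30 on the log2 scale (AvrRpm1 minus AvrRps4, adjusted p = 0.103), which missed the threshold. It passed with DESeq2 (adjusted p = 0.000562), without the filter on low counts (0.0495) and without AvrRpm1 camta3-D replicate 1 (0.0122), and the range over all alternatives was 0.000562 to 0.316. For that interaction 0 of the 6 members were called in edgeR and 1 in DESeq2, with 1 (GASA14) at an unadjusted p under 0.05, and 0.00522% of all genes were called higher and 0.0157% lower. Higher genes were 25% of those few calls, 39.9% with DESeq2 and 37.3% without the filter. For flg22 against both Pst strains, 0 of the 6 members were called in edgeR, 0 in DESeq2 and 0 at an unadjusted p under 0.05, and 0.167% of all genes were called higher and 0.141% lower. Higher genes were 54.2% of these calls, 69.6% with library totals and 43.8% with the replicate number as a block. For GASA7 the genotype difference after AvrRpm1 minus that after AvrRps4 was -1.39 ± 0.59, and after flg22 minus that after Pst -0.89 ± 0.48, without a test.

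The strains of Pst were compared within each genotype at the same time point. Whether both strains were infiltrated in the same experiments is not given in the sources used here. The effector and the experiment therefore cannot be told apart. In wild type, GASA6 was lower after AvrRpm1 than after AvrRps4, and GASA9 and GASA14 were higher. The log2 fold change of GASA6 was -2.55 ± 0.37 (5.87-fold lower, adjusted p = 0.00899), that of GASA14 1.12 ± 0.21 (2.17-fold, adjusted p = 0.023) and that of GASA9 1.10 ± 0.23 (2.14-fold, adjusted p = 0.0301). In each case both libraries were on the same side of both others. These were 2 higher and 1 lower of the 6 members other than GASA7, beside 1.58% of all genes called higher and 2.17% lower. GASA1 had a log2 fold change of 1.17 ± 0.32 (adjusted p = 0.0778, range 0.00658 to 0.296 over the alternatives, with a call in DESeq2, without the filter and with only the libraries compared). GASA7 had a log2 fold change of -0.02 ± 0.47 between the strains.

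The wild-type calls between strains rested on few libraries. Without AvrRpm1 wild-type replicate 1, none of the 3 was called, with adjusted p = 0.0778 for GASA6, 0.0942 for GASA14 and 0.175 for GASA9. GASA14 was also lost without AvrRpm1 wild-type replicate 2 (0.0933), AvrRps4 wild-type replicate 1 (0.107) or AvrRps4 wild-type replicate 2 (0.0933). GASA9 was lost without AvrRps4 wild-type replicate 1 (0.14) or replicate 2 (0.0523), and with only the libraries compared (0.118). The log2 fold changes kept their sign, at -2.97 to -2.13 for GASA6, 1.03 to 1.20 for GASA14 and 0.73 to 1.39 for GASA9.

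In camta3-D, GASA6 was lower after AvrRpm1 than after AvrRps4, and GASA1 was higher. The log2 fold change was -2.42 ± 0.36 for GASA6 (5.34-fold lower, adjusted p = 0.00235) and 1.89 ± 0.33 for GASA1 (3.70-fold, adjusted p = 0.00446). The calls of GASA6 and GASA1 held with each library left out. GASA7 had a log2 fold change of -1.41 ± 0.36 (2.66-fold lower), and -0.98 to -2.06 with a library left out, in the same libraries whose high values picked the family. GASA14 had a log2 fold change of -0.43 ± 0.21 (adjusted p = 0.165), and -0.81 without AvrRpm1 camta3-D replicate 1 (adjusted p = 0.0231). GASA9 was at 0.44 ± 0.22 (adjusted p = 0.183) and GASA4 at 0.46 ± 0.26 (adjusted p = 0.233). The counts were 1 higher and 1 lower of the 6 members other than GASA7, beside 10.5% of all genes called higher and 12.4% lower. Higher genes made up 45.8% of all calls in camta3-D, and 61.6% with library totals, which moved the median of all genes by 0.10.

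The flg22 libraries were then set against the mean of both Pst groups. The elicitor (a peptide or living bacteria) and the time (1 h or 4 h) differ together here and cannot be told apart. GASA1 and GASA14 were lower after flg22 and GASA9 was higher, in both genotypes. For GASA1 the log2 fold change was -2.62 ± 0.32 in wild type (6.17-fold lower, adjusted p = 3.99e-05) and -2.06 ± 0.31 in camta3-D (4.18-fold lower, adjusted p = 0.000206). For GASA14 the wild type gave -1.13 ± 0.19 (2.18-fold lower, adjusted p = 0.000455) and -1.51 ± 0.20 in camta3-D (2.85-fold lower, adjusted p = 7.52e-05). For GASA9 the wild type gave 1.23 ± 0.18 (2.35-fold, adjusted p = 0.000173) and 1.14 ± 0.19 in camta3-D (2.20-fold, adjusted p = 0.000356). In these comparisons all flg22 libraries were on the same side of all 4 Pst libraries, and dropping any 1 library ended none of the calls.

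The other calls against Pst were less firm. GASA6 in wild type was at 0.76 ± 0.30 (adjusted p = 0.0413). Its flg22 libraries lay between those after AvrRpm1 and after AvrRps4, so that this value depends on averaging both strains. It was not called without flg22 wild-type replicate 1 (0.0939) or 2 (0.137), AvrRpm1 wild-type replicate 1 (0.114) or AvrRps4 wild-type replicate 2 (0.103), with library totals (0.27, adjusted p = 0.458) or with the replicate number as a block (0.0547). In camta3-D GASA6 was at 0.08 ± 0.30 (adjusted p = 0.824). GASA4 was at 0.62 ± 0.22 in camta3-D (adjusted p = 0.03) and at 0.48 ± 0.22 in wild type (adjusted p = 0.0783). The call in camta3-D was lost without flg22 camta3-D replicate 2 (0.183), AvrRpm1 camta3-D replicate 2 (0.0642) or AvrRps4 camta3-D replicate 1 (0.0744), and with library totals (0.462). In wild type GASA4 was called with median-ratio size factors (0.0499), with DESeq2 (0.0476) and without AvrRps4 wild-type replicate 1 (0.024), and its log2 fold change was -0.01 with library totals. GASA7 had a log2 fold change of 1.20 ± 0.37 in wild type, 0.65 without flg22 wild-type replicate 1 and 0.73 with library totals, and 0.31 ± 0.30 in camta3-D.

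In total 2 members were called higher and 2 lower in wild type, of the 6 other than GASA7, where 34.3% of all genes were called higher and 36.8% lower. In camta3-D 2 of these 6 were called higher and 2 lower, where 32.5% of all genes were called higher and 33.9% lower. With such shares over all genes, the counts of members are no result about the family. The TMM factors were 0.797 to 0.825 in the flg22 libraries and 1.04 to 1.17 in the Pst libraries. Library totals without these factors moved the median of all genes by -0.48 in wild type and -0.42 in camta3-D, and the share of higher genes among all calls went from 48.2% to 28.4% and from 48.9% to 29.4%. With library totals 1 member was called higher (GASA9) and 2 lower in each genotype.

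**Figure D3:**
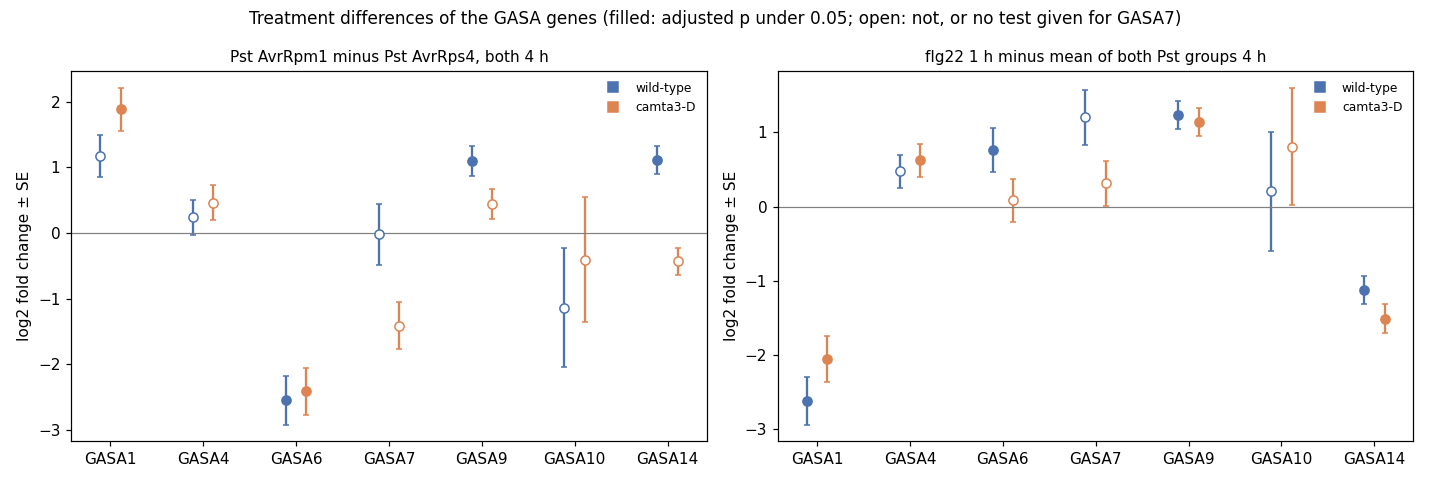
Treatment differences of the 7 members with enough counts, as log2 fold change (linear axis of log2 values) with 1 SE, in wild type (blue) and camta3-D (orange). The left panel is AvrRpm1 minus AvrRps4 and the right panel is flg22 minus the mean of both Pst groups, and filled points passed an adjusted p under 0.05 (GASA7 is drawn with open points, as no test is given for it). GASA6 lies near -2.5 on the left in both genotypes, and GASA1 lies lowest on the right, at -2.62 and -2.06.

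The genes that make, inactivate and perceive gibberellin were measured in the same libraries. For flg22 against Pst their counts stand beside 34.3% of all genes called higher and 36.8% lower in wild type, and 32.5% and 33.9% in camta3-D. Of 9 tested synthesis genes, 0 were called higher and 8 lower in wild type, and 1 higher and 8 lower in camta3-D. Their median log2 fold change of -2.40 in wild type (-1.76 in camta3-D) stands beside -0.05 and -0.03 over all genes. The enzymes of the last steps had few or no counts after flg22. GA20OX1, a gibberellin 20-oxidase, had 0 or 1 count per flg22 library and 40 to 132 per Pst library. GA20OX2, another 20-oxidase, had 0 or 1 count against 21 to 132, and GA3OX1, a 3-oxidase that makes the active hormone, had 1 to 3 counts against 76 to 412. All 3 were called lower in both genotypes. KAO1, an ent-kaurenoic acid oxidase of an earlier step, was lower by less (-1.65 ± 0.14, adjusted p = 3.21e-06 in wild type, and -1.76 ± 0.14, adjusted p = 2.8e-06 in camta3-D). KAO2, its paralogue, was at -0.83 ± 0.11 in camta3-D (adjusted p = 9.51e-05).

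Of 5 tested inactivation genes, 3 were called higher after flg22 and 0 lower in each genotype, beside the shares of all genes given above (34.3% and 36.8% in wild type, 32.5% and 33.9% in camta3-D). All 3 encode gibberellin 2-oxidases, which inactivate the hormone. GA2OX6 had 10124 to 11912 counts per flg22 library and 395 to 772 per Pst library, with a log2 fold change of 4.74 ± 0.17 in both genotypes (adjusted p = 3.14e-08 in wild type and 4.82e-08 in camta3-D). GA2OX2 was at 2.43 ± 0.20 in wild type (adjusted p = 2.48e-06) and 3.53 ± 0.21 in camta3-D (adjusted p = 3.85e-07). GA2OX8 had 46 to 67 counts per flg22 library and 0 to 5 per Pst library, and was called higher in both genotypes (adjusted p = 4.39e-05 and 5.99e-05).

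Of 19 tested receptor and signalling genes, 3 were called higher and 12 lower in wild type, and 5 higher and 9 lower in camta3-D, against the same shares of all genes (34.3% and 36.8%, then 32.5% and 33.9%). The signalling genes had a median log2 fold change of -1.14 in wild type, and of -0.83 in camta3-D. Of the receptor genes, GID1B and GID1A went in opposite directions. GID1B was higher after flg22 (2.80 ± 0.16, adjusted p = 2.2e-07 in wild type, and 3.54 ± 0.16, adjusted p = 9.21e-08 in camta3-D). GID1A was lower (-3.87 ± 0.20, adjusted p = 1.27e-07 in wild type, and -3.35 ± 0.19, adjusted p = 2.9e-07 in camta3-D). SCL3, a GRAS protein that acts against DELLA proteins, was lower (-3.85 ± 0.22, adjusted p = 2.15e-07, and -3.43 ± 0.22, adjusted p = 6.11e-07). SEC, an enzyme that modifies DELLA proteins with a sugar, was higher (1.67 ± 0.08, adjusted p = 7.81e-08, and 2.00 ± 0.08, adjusted p = 5.24e-08).

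Expansins loosen the cell wall during growth. Of 10 tested, 1 was called higher and 9 lower after flg22 in wild type, and 1 higher and 8 lower in camta3-D, beside 36.8% and 33.9% of all genes called lower. The median log2 fold change of the expansins was -1.84 (wild type) and -1.94 (camta3-D). EXPA11 was at -4.96 ± 0.37 in wild type (adjusted p = 1.34e-06) and -4.35 ± 0.36 in camta3-D (adjusted p = 2.9e-06). EXPA8 was at -4.17 ± 0.54 (adjusted p = 6.52e-05) and -4.25 ± 0.57 (adjusted p = 9.25e-05). EXPA1 was at -2.85 ± 0.40 in wild type (adjusted p = 0.000104), and EXPA6 at -1.47 ± 0.17 in camta3-D (adjusted p = 3.09e-05). EXPA5 was the exception in both genotypes (2.85 ± 0.31, adjusted p = 1.85e-05, and 2.85 ± 0.31, adjusted p = 2.17e-05). With a library left out, 6 to 9 expansins were called lower in wild type and 7 or 8 in camta3-D.

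**Figure D4:**
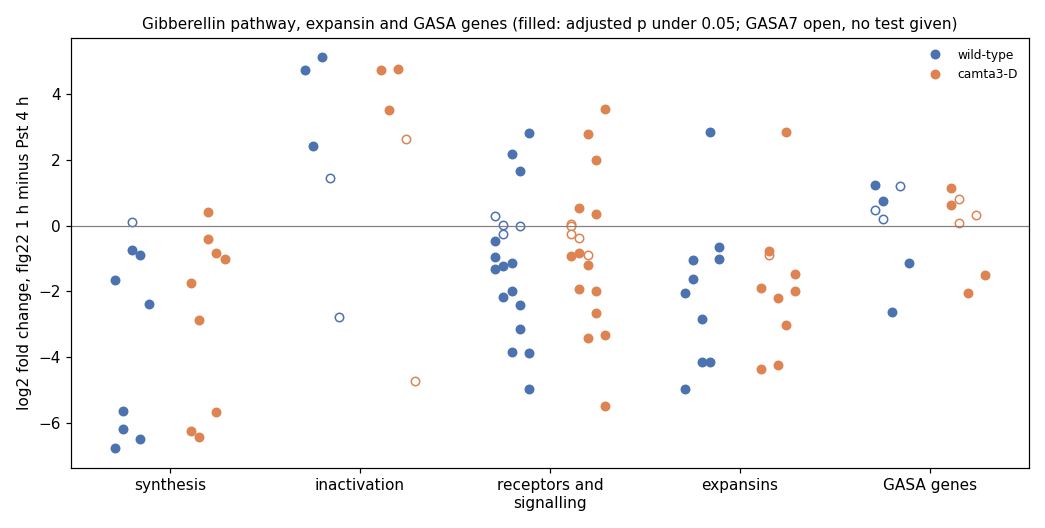
Difference between flg22 and the mean of both Pst groups for the tested genes of 5 lists, as log2 fold change (linear axis of log2 values), in wild type (blue) and camta3-D (orange), where each point is a gene and filled points passed an adjusted p under 0.05 (GASA7 is drawn open). Synthesis genes and expansins lie mostly below 0, all 3 called inactivation genes lie above 2, and the GASA genes lie on both sides, between -2.62 and 1.23.

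The same lists were then compared between genotypes. After flg22, where 5.21% of all genes were called higher in camta3-D and 5.59% lower, GA2, an ent-kaurene synthase, was higher in camta3-D (0.55 ± 0.13, adjusted p = 0.0288) as the only call of 9 synthesis genes. Of 19 signalling genes 3 were higher and 1 lower, 9 had an unadjusted p under 0.05, and DESeq2 called 5 higher and 1 lower. The shares of all genes beside the unadjusted and DESeq2 counts are not given. The median log2 fold change of the signalling genes was 0.37, against 0.04 over all genes. GAI, a DELLA protein, was at 1.08 ± 0.21 (adjusted p = 0.0164), PIF3, a transcription factor held by DELLA proteins, at 1.13 ± 0.22 (adjusted p = 0.0164), SEC at 0.37 ± 0.09 (adjusted p = 0.0347) and MYB33 at -0.68 ± 0.17 (adjusted p = 0.035). Each of these 5 calls was lost without at least 1 of the 4 libraries, with the highest adjusted p = 0.148 for GA2, 0.118 for GAI, 0.0985 for PIF3, 0.176 for SEC and 0.135 for MYB33. GA2 and SEC were lost without any 1 of the 4, GAI without replicate 2 of either genotype, PIF3 in all cases but wild-type replicate 1, and MYB33 in all cases but wild-type replicate 2. With only the libraries compared GA2 (0.0719), SEC (0.113) and MYB33 (0.111) were lost, and SEC also without the filter on low counts (0.0601) and with the replicate number as a block (0.052).

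After AvrRpm1, where 1.12% of all genes were called higher and 3.41% lower, EXPA6 was higher in camta3-D (1.69 ± 0.19, 3.22-fold, adjusted p = 0.00198), as the only call of 10 expansins. It held with each library left out, but not with only the libraries compared (0.0569). GA2OX2 was lower (-1.35 ± 0.33, adjusted p = 0.0483), as the only call of 5 inactivation genes, and was lost without any 1 of the 4 libraries (0.13 to 0.199) and with only the libraries compared (0.103). After AvrRps4, where 2.49% of all genes were called higher and 2.44% lower, 2 of 9 synthesis genes were called lower and 0 higher. At an unadjusted p under 0.05 there were 5, for which no share over all genes is given. The median log2 fold change of the synthesis genes was -0.67, against 0.00 over all genes, and 0 or 1 of them were called lower with a library left out. EXPA6 was again higher (1.27 ± 0.18, 2.41-fold, adjusted p = 0.00934), but the adjusted p was 0.0544 to 0.0622 when any library but wild-type replicate 2 was dropped. EXPA6 was at 80.4 and 86.4 CPM in camta3-D against 36.5 and 32.8 CPM in wild type. GA3, an ent-kaurene oxidase, was lower (-0.87 ± 0.13, adjusted p = 0.0113), as were GA20OX3 (-2.39 ± 0.58, adjusted p = 0.0463), SCL3 (-0.77 ± 0.19, adjusted p = 0.0489) and EXPA10 (-2.40 ± 0.52, adjusted p = 0.0344). SCL3 and EXPA10 were also lost with the replicate number as a block (0.0654 and 0.0538) and with only the libraries compared (0.103 and 0.0739). GA20OX3 was lost without any 1 of the 4 libraries (up to 0.229), and GA3 (up to 0.0854), SCL3 (up to 0.277) and EXPA10 (up to 0.201) were lost without any library but wild-type replicate 2. EXPA10 was at 87.2 CPM in wild-type replicate 1 and 26.9 CPM in replicate 2, and its log2 fold change without the former was -1.32.

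Between strains in wild type, GA2OX2 was lower after AvrRpm1 than after AvrRps4 (-1.98 ± 0.26, adjusted p = 0.00736), as were EXPA1 (-1.95 ± 0.40, adjusted p = 0.03) and EXPA4 (-1.43 ± 0.31, adjusted p = 0.0367). SCL3 was higher (0.96 ± 0.18, adjusted p = 0.0233). Without AvrRpm1 wild-type replicate 1 none of these 4 was called (0.0645, 0.161, 0.157 and 0.0942 respectively). EXPA1 and EXPA4 were also lost without AvrRps4 wild-type replicate 1 (0.128 and 0.116), EXPA4 and SCL3 without AvrRpm1 wild-type replicate 2 (0.151 and 0.101), and SCL3 without AvrRps4 wild-type replicate 2 (0.098). With only the libraries compared EXPA1 (0.11), EXPA4 (0.119) and SCL3 (0.0851) were lost, and EXPA1 with the replicate number as a block (0.0512). Over all genes, 1.58% were called higher and 2.17% lower in this comparison. Of 10 expansins 0 were called higher and 2 lower, 7 had an unadjusted p under 0.05, and DESeq2 called 5 lower. DESeq2 also called more of all genes than edgeR here. No share over all genes is given beside the unadjusted and DESeq2 counts, so nothing is read from them about the list. The median log2 fold change of the expansins was -1.05, against 0.00 over all genes. Of 9 synthesis genes 0 were called, of 5 inactivation genes 1 was lower, and of 19 signalling genes 1 was higher.

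In camta3-D, where 10.5% of all genes were called higher after AvrRpm1 than after AvrRps4 and 12.4% lower, 4 synthesis genes were higher and 3 lower of 9, 1 inactivation gene was higher and 1 lower of 5, and 4 signalling genes were higher and 4 lower of 19. GA2OX2 had the largest named difference (-3.29 ± 0.30, adjusted p = 0.00051), and was lower together with GAI (-1.05 ± 0.21, adjusted p = 0.00743) and PIF4 (-0.85 ± 0.14, adjusted p = 0.00323). SCL3 (1.24 ± 0.19, adjusted p = 0.00257) and PIF3 (1.45 ± 0.22, adjusted p = 0.00245) were higher, and all 5 were called whichever library was left out. GA3OX1 was at 1.30 ± 0.35 (adjusted p = 0.0254) and GA2OX6 at 0.65 ± 0.20 (adjusted p = 0.0436). KAO1 was at -0.67 ± 0.14 (adjusted p = 0.00912), GA2 at -0.60 ± 0.13 (adjusted p = 0.0101) and KAO2 at -0.47 ± 0.12 (adjusted p = 0.0204). GA3OX1 (up to 0.178) and KAO1 (up to 0.0762) were lost without AvrRpm1 replicate 1 or AvrRps4 replicate 2, and GA2OX6 (up to 0.229), GA2 (up to 0.0717) and KAO2 (up to 0.139) without any library but AvrRpm1 replicate 1. With only the libraries compared GA3OX1 (0.0851), GA2OX6 (0.0629) and KAO2 (0.0628) were lost, and KAO2 also with library totals (0.0686). Of 10 expansins 0 were called in edgeR, with 2 at an unadjusted p under 0.05 and 1 lower in DESeq2.

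The members did not follow a common pattern over the 12 libraries. The Pearson correlation of log2 CPM with GASA7 was 0.60 for GASA6, 0.32 for GASA4, 0.28 for GASA14, 0.21 for GASA9, 0.14 for GASA10 and -0.54 for GASA1. Among the other pairs it ran from -0.62 between GASA1 and GASA6 to 0.67 between GASA4 and GASA9. GASA10 is the nearest to GASA7 in coding sequence, but had only 2 to 20 counts per library. Over the 6 group means its correlation with GASA7 was 0.56, beside 0.61 for GASA6. Whether GASA10 is near to GASA7 in pattern cannot be judged at this depth. The 5 tested genes most like GASA7 were AT2G35450 (0.95), CRL (0.94), AT1G11785 (0.94), EMB3003 (0.94) and AT4G16910 (0.94). AT1G11785 was at only 0.035 to 0.77 CPM, and AT4G16910 at 1.15 to 4.37 CPM. The 5 were picked as the highest of 19167 tested genes. These correlations are over 12 libraries in 6 groups that share genotype, treatment and scaling, and are a description.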

How the data were processed

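Transcripts were measured in 12 leaf libraries, 2 per group, prepared with a TruSeq kit (v2). Per the labels, the authors aligned reads to TAIR10 with TopHat2 (2.0.10) after FastQC (0.11.2) and deposited raw counts per gene from HTSeq, whose version and strand setting are not given in the sources used here. Alignment and counting were not repeated. The table held 32678 genes and 5 rows that name no gene (5.66% to 10.8% of alignments), which were left out. Libraries held 22.8 to 26.3 M gene counts.

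Genes passing filterByExpr (minimum count 10) were kept, 19167 in all. Counts were scaled by TMM and fitted with edgeR (4.0.16, R 4.3.3) as 6 group means over 12 libraries, with 6 residual degrees of freedom, and tested by the quasi-likelihood F-test. The SE is the absolute log2 fold change divided by the root of F. P-values were Benjamini-Hochberg adjusted over all genes tested, within each of 9 comparisons, and called under 0.05. Counts of listed genes at an unadjusted p under 0.05 or in DESeq2 have no share over all genes beside them. CPM and RPKM are TMM-scaled, and log2 CPM for correlations carries a prior count of 2. The prior count in fitted folds was 0.125. Genes with 5 counts or fewer in every library of a group are given by their counts, with no fold.

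Members, gene lists, tests and naming rules were chosen with earlier results of these data known. Named were all members, the other GASA genes by counts, up to 4 genes with the smallest adjusted p under 0.05 per gibberellin or expansin list and comparison, CAMTA3, and the 5 genes most like GASA7. Exon lengths and sequences came from RefSeq for TAIR10.1 (31912 genes matched by locus). Alternatives were median-ratio size factors, library totals, DESeq2 (1.42.0), no filter, the replicate number as a block, only the libraries compared, and each library left out. Scripts were tested on simulated data. The fit also tested GASA7 between treatments, but no p is given because those libraries picked the family. No replicates were duplicates of each other.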

Additional observations from a re-analysis of the deposited data

How the results depend on the processing

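No member that was called, and no named pathway gene, changed sign under any alternative. Called members after AvrRps4 (camta3-D against wild type) went from 1 to 2 with DESeq2, without the filter, with only the libraries compared and with library totals, the last chosen after seeing that the TMM factors differed between flg22 and Pst libraries. For the interaction of AvrRpm1 and AvrRps4 with genotype the count went from 0 to 1 with DESeq2 and without the filter. For flg22 against Pst in wild type, GASA6 lost its call with library totals (adjusted p = 0.458). With 1 library left out, an arm was left with 1 library, which was assumed to vary like the other groups. The counts of called members then ranged from 0 to 1 after AvrRps4, 0 to 2 between strains in wild type, 2 to 4 between strains in camta3-D, 3 to 6 for flg22 against Pst in wild type, 3 to 4 in camta3-D, and 0 to 1 for the interaction of AvrRpm1 and AvrRps4 with genotype. The counts between treatments include GASA7, for which no test is given in the text. The counts for camta3-D against wild type after flg22 and after AvrRpm1, and for the interaction of flg22 and Pst with genotype, stayed at 0.

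Replicate numbers did not pair the libraries. The correlation of deviations between equally numbered libraries was -0.18 to 0.098 over 15 pairs of groups, with 0 over 0.1. With the replicate number as a block, the called members were 1 after AvrRps4 and 0 in the other genotype comparisons and the interactions. The only member that lost its call in any comparison was GASA6 for flg22 against Pst in wild type (adjusted p = 0.0547). Of 56 named pathway differences, 4 were lost with the block, 13 with only the libraries compared, 1 without the filter and 1 with library totals.

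Over all genes, DESeq2 called 1470 genes after AvrRpm1 in place of 867, 1778 after AvrRps4 in place of 944, and 1446 between strains in wild type in place of 719. With only the libraries compared these counts were 108, 535 and 373, and after flg22 1203 in place of 2071. For the interaction of flg22 and Pst with genotype the main count of 59 became 618 with DESeq2, 142 without the filter, 112 with library totals and 16 with the block. For that of AvrRpm1 and AvrRps4 the main count of 4 became 581 with DESeq2 and 51 without the filter. With 1 library left out, the counts were 218 to 961 after flg22, 134 to 799 after AvrRpm1, 72 to 721 after AvrRps4, 65 to 351 between strains in wild type, 1793 to 2653 in camta3-D (4383 with all), 0 to 106 for the former interaction and 0 to 97 for the latter. The cause was not tested. Depth limits GASA10 and GASA5, at 20 or fewer counts per library.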
